A study of Homo sapiens with 12 samples.

Results

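*PD-L1* was targeted with 2 different siRNAs, and the values below compare these siRNAs with each other in cells that received no IFNγ. The comparison rests on 4 of the 12 libraries of the series, 2 transfected with siPDL1-1 (siPDL1-1-C) and 2 with siPDL1-2 (siPDL1-2-C). It was chosen by the labels of the libraries and not by any measured value. All 12 libraries came from U251, an established human glioblastoma cell line, grown in DMEM with serum. The unstimulated groups were siNC-C (control siRNA), siPDL1-1-C and siPDL1-2-C, and the stimulated groups were siNC-IFN, siPDL1-1-IFN and siPDL1-2-IFN, which were exposed to 100 U/ml IFNγ for 24 h, starting 48 h after transfection. Every group held 2 libraries, and all 6 groups had been transfected with an siRNA. The labels give the genotype of both targeting groups as *PD-L1* knockdown, and no label separates the 2 siRNAs other than by name. Poly(A) RNA was sequenced, and the values are the normalized CPM of the deposited table, read counts scaled by library depth. A transfected well is a bulk sample of 1 cell line, so fewer cells expressing a gene and less RNA of it in each cell cannot be told apart.

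An siRNA is a short RNA duplex whose guide strand is loaded into Argonaute and directs cleavage of a transcript with a matching site. The guide can also pair with other transcripts through its seed, and duplex RNA in a cell can be recognised by sensors such as RIG-I, MDA5, PKR and TLR3, which act upstream of interferons and interferon-stimulated genes. PD-L1 is a membrane ligand that restrains T cells through PD-1, and its gene is itself induced by IFNγ. A pair of siRNAs with the same target is used so that effects seen with both can be separated from effects of either sequence alone, and the direct comparison describes what the pair did not share.

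The siRNAs gave different transcriptomes in unstimulated cells. Of 17982 genes tested, 783 (4.35%) differed at FDR < 0.01 with a fold change > 1.5, of which 159 (0.884%) were higher with siPDL1-1 and 624 (3.47%) were higher with siPDL1-2. Genes called higher with siPDL1-1 included 12 of 39 interferon-response genes, *HMOX1*, *FTH1*, *COL6A3*, *IER3* and *TNFAIP3*, and genes called higher with siPDL1-2 included 6 of 36 ATF4-response genes, *INSIG1*, *CD164* and *RMND5A*. Values were compared with limma on log2(CPM + 1), all 12 libraries were fitted as 6 groups, and each log2 difference below is siPDL1-1 minus siPDL1-2. The pseudocount makes differences smaller for genes near or below 1 CPM. When each library of the contrast was left out in turn, 83 of the 159 genes (52.2%) and 408 of the 624 genes (65.4%) were called every time. Groups without overlap were common: both siPDL1-1 libraries lay above both siPDL1-2 libraries in 36.0% of all tested genes and below them in 36.5%, so separation of 2 against 2 libraries carries little weight by itself.

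The libraries had 33791141 and 41611658 reads on genes for siPDL1-1 and 40278923 and 31678437 for siPDL1-2, so depth was similar on both sides. They differed in base composition. The difference between the siRNAs rose with the GC content of the transcript, from a median log2 difference of -0.37 in the decile of genes with the lowest GC to 0.24 in the highest decile, and the Spearman correlation across 17922 genes, which share the same 4 libraries, was 0.651. Both libraries of a group behaved alike, since the level of a gene relative to its mean over all libraries had a Pearson correlation with GC of 0.409 and 0.386 in the siPDL1-1 libraries, -0.291 and -0.307 in the siPDL1-2 libraries and 0.157 and 0.262 in the siNC libraries. In the lowest decile 20.4% of genes were called higher with siPDL1-2, and in the highest decile 4.02% were called higher with siPDL1-1. Genes called higher with siPDL1-1 had a median GC content of 61.2%, those called higher with siPDL1-2 had 37.7%, and all tested genes had 48.7%. After IFNγ, in other libraries of the same siRNAs, the Spearman correlation of the difference with GC was -0.045. The libraries of a group did not behave alike there, since the Pearson correlation of the level with GC was 0.148 and -0.113 in the siPDL1-1 libraries and -0.0398 and 0.152 in the siPDL1-2 libraries. The part of GC content in the unstimulated difference was not tested, and cells and library preparation cannot be told apart as its source. The difference was therefore also computed after removal of each library's trends on GC content and transcript length, an alternative chosen after seeing the data. It called 257 of 17922 genes (1.43%), 87 (0.485%) higher with siPDL1-1 and 170 (0.949%) higher with siPDL1-2. Of the genes called in the values as deposited, 66 of 159 (41.5%) and 144 of 624 (23.1%) were also called in this way. In the opposite direction 0 were called, and the sign of genes that lost their call was not counted.

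**Figure D1:**
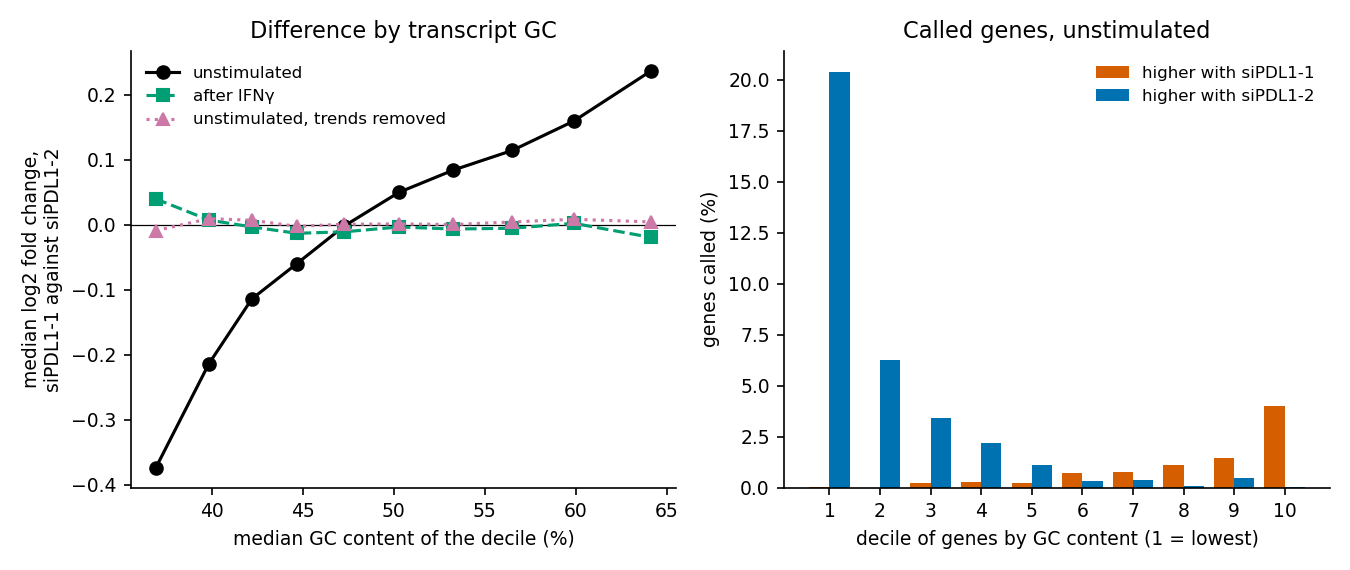
The left panel plots the median log2 fold change of siPDL1-1 against siPDL1-2 (vertical axis) against the median GC content in percent of each decile of the tested genes, for unstimulated cells, for cells after IFNγ and for unstimulated cells with the trends removed; the right panel plots the percentage of genes called in each decile in unstimulated cells. The unstimulated line climbs from -0.37 to 0.24, the other lines stay near 0, and the genes called higher with siPDL1-2 gather in the lowest decile (20.4%).

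*CD274*, the gene of PD-L1 (chr9:5450503-5470566 on the plus strand of GRCh38), was 2.67 and 2.73 CPM with siPDL1-1 and 3.57 and 3.45 CPM with siPDL1-2, against 4.60 and 4.91 CPM with siNC. Every targeting library lay below both control libraries, and the siPDL1-1 libraries lay below the siPDL1-2 libraries. The log2 difference between the siRNAs was -0.29 (95% confidence interval -0.45 to -0.12, limma FDR = 0.00865), which passed the FDR and not the fold threshold. The FDR threshold was missed whichever library was left out (limma FDR = 0.0343 to 0.0566), with the replicate block (0.011), with only the 4 libraries fitted (0.0346), by edgeR (0.0221) and by DESeq2 (0.0476), and the difference kept its sign in each of these fits. With the trends removed it was -0.12 (limma FDR = 0.236). After IFNγ the order was the opposite, with 60.9 and 66.7 CPM for siPDL1-1 and 37.5 and 35.0 CPM for siPDL1-2, and the dependence of the difference on IFNγ was -1.08 on the log2 scale (limma FDR = 9.83e-06). Of 11 tested genes of this locus on chromosome 9, *CD274* among them, 0 were called in unstimulated cells in either direction. Over all genes the share was 4.35%, so a count of 0 in 11 carries little weight. The neighbour *PDCD1LG2*, which encodes the other PD-1 ligand, was 1.07 and 1.18 CPM with siPDL1-1 and 1.65 and 1.53 CPM with siPDL1-2 (log2 difference -0.29, limma FDR = 0.0297). *JAK2*, the kinase of the IFNγ receptor, was 23.3 and 21.3 CPM and 26.6 and 25.9 CPM, and its log2 difference of -0.22 became 0.22 with the trends removed, without a call either way.

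Of the 25 gene lists examined, the interferon-stimulated genes held the most called members. Of 39 tested genes of a type I interferon-response list, 12 were higher with siPDL1-1 and 0 with siPDL1-2, beside 0.884% and 3.47% of all genes. The median log2 difference of the list was 0.20 against 0.00 over all tested genes, 29 of 39 values were above 0, and its median GC content was 45.0%. With the trends removed, 13 members were higher with siPDL1-1, among them the same 12 and *IFI44*, and the median was 0.27. Over the list, the summed level was 2137 to 2157 CPM with siPDL1-1, 1812 to 1815 CPM with siPDL1-2 and 1661 to 1675 CPM with siNC. None of the 12 calls was lost when any 1 library of the contrast was left out.

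The promoters of these genes are shown because 7 of the 8 called members with a RefSeq promoter hold the interferon-stimulated response element, here searched as GAAA, 2 bases of any kind and GAAA again, the site read by the ISGF3 complex. Both strands were searched from 250 bases before to 50 after each start, and overlapping matches were allowed. Among the members that were not called, 19 of 24 hold it too, so the motif did not separate called from uncalled members. It stands in 3.57% of all 35116 promoters and in 4.13% of the 12208 tested genes with a promoter. The windows below are RefSeq sequence of GRCh38.p14, 5′ to 3′ on the strand of the gene, and every match is in capitals.
IFIT1, chr10:89392482-89392554, plus strand: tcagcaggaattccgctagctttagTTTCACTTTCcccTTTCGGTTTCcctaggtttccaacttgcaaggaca
IFIT3, chr10:89327816-89327909, plus strand: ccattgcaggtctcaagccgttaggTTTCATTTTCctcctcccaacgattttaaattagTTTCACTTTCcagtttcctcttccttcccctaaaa
ISG15, chr1:1013359-1013424, plus strand: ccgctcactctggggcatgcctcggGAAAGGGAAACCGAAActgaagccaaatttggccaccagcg
IFI6, chr1:27672251-27672373, minus strand: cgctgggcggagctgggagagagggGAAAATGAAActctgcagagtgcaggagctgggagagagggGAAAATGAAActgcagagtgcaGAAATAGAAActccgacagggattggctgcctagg
IFI44L, chr1:78620350-78620409, plus strand: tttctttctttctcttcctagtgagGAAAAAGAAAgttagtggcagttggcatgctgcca
BST2, chr19:17405720-17405785, minus strand: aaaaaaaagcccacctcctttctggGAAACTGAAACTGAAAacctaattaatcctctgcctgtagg
MX1, chr21:41431829-41431888, plus strand: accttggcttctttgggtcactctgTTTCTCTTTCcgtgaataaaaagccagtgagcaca
In *IFIT1* the last match ends 93 bases before the start, with both matches in the reverse orientation, while *ISG15* and *BST2* each hold 2 matches that overlap and *IFI6* holds 3. The run of *IFI44L* occurs again, letter for letter, at chr1:78620259-78620318. *MX1* is printed as a member that holds the motif and was not called.

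On log2(CPM + 1), *OAS1* had the largest difference of the list. With a pseudocount of 0.1, *OAS2* (2.80) and *OASL* (2.62) exceeded *OAS1* (2.50). *OAS1* encodes an oligoadenylate synthetase, an enzyme that is switched on by double-stranded RNA and activates RNase L. It was 3.92 and 4.00 CPM with siPDL1-1, 0.623 and 0.61 CPM with siPDL1-2 and 0.539 and 0.886 CPM with siNC, a log2 difference of 1.62 (standard error 0.105, limma FDR = 1.04e-07). The level with siPDL1-1 was above the other 2 groups, which overlapped. Among its relatives, *OASL* and *OAS2* were called as well. *OASL* was 2.23 and 1.79 CPM against 0.24 and 0.244 CPM (log2 difference 1.27, limma FDR = 7.39e-07). *OAS2* was 1.48 and 2.02 CPM against 0.144 and 0.183 CPM, where the siPDL1-2 values rest on 6 reads in each library (log2 difference 1.24, limma FDR = 7.39e-07). *OAS3* was 23.6 and 24.1 CPM against 17.5 and 16.9 CPM and did not reach the fold threshold (log2 difference 0.45, limma FDR = 2.71e-05).

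The IFIT proteins bind foreign RNA ends and block its translation, and 3 of the 4 IFIT genes of the list were higher with siPDL1-1. *IFIT1* was 19.5 and 18.8 CPM with siPDL1-1, 7.76 and 7.32 CPM with siPDL1-2 and 9.69 and 8.55 CPM with siNC, a ratio of means of 2.54 between the siRNAs (log2 difference 1.24, limma FDR = 1.51e-08). *IFIT3* was 7.60 and 7.67 CPM against 2.61 and 2.81 CPM (log2 difference 1.22), and *IFIT2* was 9.11 and 10.1 CPM against 5.22 and 5.62 CPM (log2 difference 0.72). The siPDL1-1 libraries lay above the siPDL1-2 and siNC libraries for these 3 genes. *IFIT5*, the other one, was 23.4 and 21.7 CPM against 23.8 and 26.4 CPM and was not called (log2 difference -0.14, limma FDR = 0.0945). *LIPA* overlaps the 3 called genes on the opposite strand, and since the strand was not used in counting, reads of the overlap were not separated.

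*IFI44L*, an interferon-induced gene of uncertain function, was 5.74 and 6.05 CPM with siPDL1-1, 1.27 and 1.62 CPM with siPDL1-2 and 1.37 and 1.62 CPM with siNC (log2 difference 1.5, limma FDR = 4.62e-08). *ISG15*, a ubiquitin-like modifier, was 27.0 and 25.7 CPM against 13.6 and 12.7 CPM, a ratio of means of 2.00 (log2 difference 0.95, limma FDR = 0.000293). *IFI6*, a mitochondrial survival factor, was 33.6 and 32.2 CPM against 17.2 and 17.3 CPM (log2 difference 0.89, limma FDR = 8.56e-06). For these 3 genes every siPDL1-2 and siNC library lay below both siPDL1-1 libraries. *BST2*, the tetherin that holds budding virions at the membrane, was 27.5 and 27.7 CPM against 14.8 and 16.2 CPM (log2 difference 0.80). The remaining 2 calls were at low levels, *IFI27* at 2.41 and 1.95 CPM against 0.839 and 1.01 CPM and the nuclear-pore GTPase *MX2* at 1.25 and 1.18 CPM against 0.359 and 0.214 CPM, where siPDL1-2 had 15 and 7 reads.

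Other well-known members of the list were not called as deposited. *MX1*, the cytoplasmic counterpart of *MX2*, was 3.02 and 3.88 CPM with siPDL1-1 and 3.91 and 3.45 CPM with siPDL1-2, so the groups overlapped (log2 difference -0.08, 95% confidence interval -0.36 to 0.20). *USP18*, which removes ISG15 and dampens receptor signalling, was 8.85 and 7.93 CPM against 7.45 and 7.51 CPM (log2 difference 0.15, limma FDR = 0.147). *RSAD2*, the antiviral enzyme viperin, had 14 and 9 reads with siPDL1-1 and 1 read in each siPDL1-2 library (log2 difference 0.35, limma FDR = 0.0352). *IFITM3* was 36.8 and 35.6 CPM against 24.8 and 24.6 CPM and *IFI44* was 7.37 and 6.59 CPM against 4.27 and 4.70 CPM, both below the fold threshold (log2 differences 0.53 and 0.54). Only *IFI44* of these 5 genes was called with the trends removed. In all, 10 of the 39 values were below 0, the lowest of them for the helicase-like gene *DDX60L* at 24.9 and 25.9 CPM against 37.3 and 35.4 CPM (log2 difference -0.50, limma FDR = 0.000195), which did not reach the fold threshold.

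**Figure D2:**
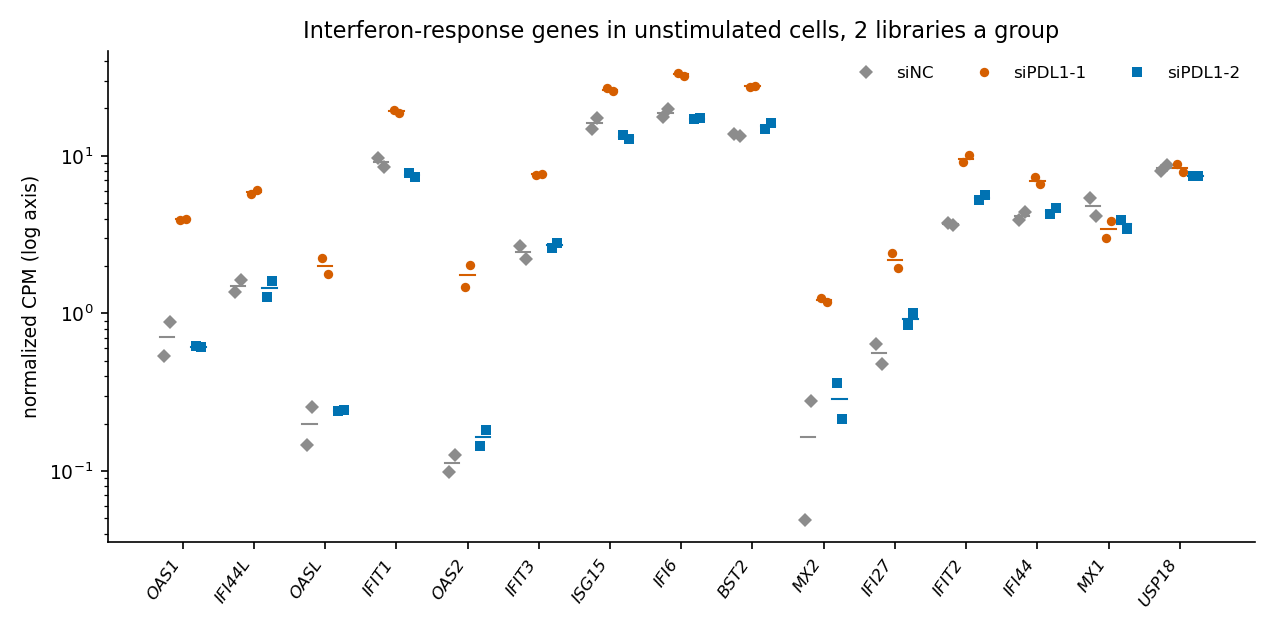
Normalized CPM (vertical log axis) of 15 interferon-response genes in the 2 unstimulated libraries of siNC, siPDL1-1 and siPDL1-2, where points are libraries and short lines are group means. For *OAS1*, *IFI44L*, *OASL* and *OAS2* the siPDL1-1 points stand above both other groups, whereas for *MX1* the siPDL1-1 and siPDL1-2 points overlap.

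Interferon transcripts themselves were barely detectable in these 4 libraries. *IFNA1*, *IFNA2*, *IFNK*, *IFNL1*, *IFNL2*, *IFNL3* and *IFNG* had 0 reads in all of them, which allows up to 3 reads a library or 0.0706 to 0.0916 CPM. *IFNB1* had 0 reads in the siPDL1-1 libraries and 1 read in each siPDL1-2 library. *IFNE*, also on the list and not tested, averaged 0.11 CPM over all 12 libraries and overlaps *MIR31HG* on the same strand. Among 9 tested interferons and receptors 0 were called, beside 4.35% of all genes. *IFNB1*, *IFNL1* and *IFNL2* were among the 9, since the filter used all 12 libraries, and had too few reads here to be called. The receptor subunit *IFNAR1* was 34.2 and 34.5 CPM against 48.4 and 44.3 CPM (log2 difference -0.42, limma FDR = 7.59e-05), below the fold threshold. Of 16 genes of double-stranded RNA sensing, 1 was called as deposited, and it was higher with siPDL1-2, beside 3.47% of all genes. This was *TLR3*, the endosomal receptor for double-stranded RNA, at 3.48 and 2.82 CPM with siPDL1-1, 6.57 and 7.20 CPM with siPDL1-2 and 4.11 and 3.19 CPM with siNC (log2 difference -0.93, limma FDR = 8.3e-06), and it was also called with the trends removed. *DDX58*, which encodes RIG-I, was 16.6 and 18.9 CPM against 13.6 and 13.6 CPM. Its log2 difference of 0.35 did not pass the fold threshold as deposited, and 0.61 did with the trends removed (limma FDR = 4.57e-08).

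Calls in the lists of the IFNγ arm stand beside 0.884% of all genes higher with siPDL1-1 and 3.47% higher with siPDL1-2. Of 28 tested genes of JAK-STAT signalling and the IFNγ response, 1 was higher with siPDL1-1, *TYMP* (thymidine phosphorylase) at 2.93 and 3.81 CPM against 1.65 and 1.86 CPM (log2 difference 0.66, limma FDR = 0.00165). This call was absent when siPDL1-1-C replicate 2 or siPDL1-2-C replicate 1 was left out and with the trends removed, and *TYMP* overlaps *SCO2*. *IRF9*, the DNA-binding subunit of ISGF3, was 34.0 and 32.1 CPM against 23.0 and 23.7 CPM (log2 difference 0.49), under the fold threshold. Of 20 genes of HLA class I presentation, 1 was higher with siPDL1-2, the peptide-trimming enzyme *ERAP2* at 26.3 and 25.6 CPM against 45.1 and 47.7 CPM (log2 difference -0.81), and its log2 difference of -0.57 with the trends removed was below the fold threshold. Of the 10 immunosuppressive genes that the study follows, 0 were called, beside 4.35% of all genes, so this count carries little weight. *IDO1* had 0 and 1 read with siPDL1-1 and 4 and 2 reads with siPDL1-2, and *CXCL10* had 3 reads in each siPDL1-1 library and 2 and 1 with siPDL1-2, too few to compare. Both genes were tested because the filter used all 12 libraries.

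*HMOX1* and *FTH1* were higher with siPDL1-1, and for both genes the siPDL1-2 libraries lay below those of the other groups. *HMOX1*, the haem oxygenase that releases iron from haem (chr22:35380361-35394214, plus strand, GRCh38), was 54.7 and 51.9 CPM with siPDL1-1, 18.2 and 18.5 CPM with siPDL1-2 and 50.5 and 51.2 CPM with siNC. The log2 difference between the siRNAs was 1.48 (standard error 0.0711, limma FDR = 6.31e-09), a ratio of means of 2.90. *FTH1*, the ferritin heavy chain that stores iron, was 2175 and 2119 CPM, 1221 and 1217 CPM and 2754 and 2709.8 CPM in the same order (log2 difference 0.82, limma FDR = 1.04e-09). *FTL*, the ferritin light chain, was 8214 and 8455 CPM against 6214 and 6157 CPM and did not reach the fold threshold (log2 difference 0.43). Ferritin genes have many near-identical pseudogenes, so the counting could have split their reads. Of 25 NRF2 antioxidant genes, 2 were higher with siPDL1-1 (*HMOX1* and *FTH1*) and 0 with siPDL1-2, beside 0.884% and 3.47% of all genes. The median log2 difference was 0.24 and 23 of 25 values were above 0. With the trends removed, 3 were higher with siPDL1-1, beside 0.485% of all genes, and the median was 0.25. The third was the thioredoxin gene *TXN* at 215 and 217 CPM against 184 and 181 CPM (log2 difference 0.24 as deposited and 0.66 with the trends removed). *NFE2L2*, the gene of NRF2 itself, was 71.0 and 70.9 CPM against 93.2 and 101 CPM (log2 difference -0.45), the opposite sign and below the fold threshold.

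Of 27 tested NFκB targets and cytokines, 3 were higher with siPDL1-1, 1 was higher with siPDL1-2 and 23 were not called, beside 0.884% and 3.47% of all genes. *IER3*, an early response gene that protects from apoptosis, was 48.0 and 48.6 CPM with siPDL1-1 and 26.2 and 25.9 CPM with siPDL1-2 (log2 difference 0.87, limma FDR = 2.03e-07). *TNFAIP3*, whose product A20 shuts off NFκB signalling, was 13.7 and 14.7 CPM against 7.24 and 7.94 CPM (log2 difference 0.82, limma FDR = 3.05e-06), with 18.3 and 16.5 CPM for siNC. *IL32*, a proinflammatory cytokine, was 4.26 and 4.59 CPM against 2.44 and 2.14 CPM (log2 difference 0.72). The siPDL1-1 libraries lay above the siPDL1-2 libraries for all 3 genes, as they did in 15 of the 27 tested genes and in 36.0% of all tested genes. For *TNFAIP3* the siNC libraries were the highest. The opposite case was *SOD2*, the mitochondrial superoxide dismutase, at 69.8 and 70.0 CPM against 115 and 115 CPM (log2 difference -0.71, limma FDR = 5.22e-08), which overlaps *WTAP* and has no GC value for the corrected fit. The 3 calls were also made with the trends removed, together with *CXCL8*, a neutrophil chemokine at 1.60 and 1.74 CPM, 1.58 and 1.07 CPM and 7.44 and 7.59 CPM with siNC. As deposited its log2 difference was 0.21 (limma FDR = 0.3).

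Of 41 tested genes of the extracellular matrix and its proteases, 3 were higher with siPDL1-1 and 0 with siPDL1-2, beside 0.884% and 3.47% of all genes. The other 38 were not called, the median log2 difference was 0.27, and 34 values were above 0. With the trends removed, 2 were higher with siPDL1-1, beside 0.485% of all genes. *COL6A3*, a chain of the microfibrillar collagen VI (chr2:237324003-237414207, minus strand), was 99.9 and 99.5 CPM with siPDL1-1, 46.7 and 44.1 CPM with siPDL1-2 and 77.7 and 79.4 CPM with siNC (log2 difference 1.12, limma FDR = 2.97e-08). The siNC libraries lay between the siRNAs. *COL6A2*, another chain of collagen VI, was 352 and 341 CPM against 207 and 206 CPM (log2 difference 0.74, limma FDR = 8.84e-05), and was no longer called with the trends removed (0.40). *COL6A1*, the remaining tested chain, was 985 and 973 CPM against 673 and 681 CPM and did not reach the fold threshold (log2 difference 0.53, limma FDR = 0.000762). *COL18A1*, a basement-membrane collagen, was 495 and 503 CPM against 321 and 324 CPM (log2 difference 0.63, limma FDR = 0.008), and its call was lost whichever library was left out, with the replicate block and with the trends removed. Fibrillar and adhesive genes below the fold threshold were *FBN1* at 182 and 182 CPM against 126 and 117 CPM (log2 difference 0.58, and called at 0.60 with the trends removed) and *FN1* at 737 and 749 CPM against 521 and 505 CPM (log2 difference 0.53). In all 6 genes both siPDL1-1 libraries lay above both siPDL1-2 libraries. The same order was found in 32 of the 41 tested genes of the list and in 36.0% of all tested genes. Outside the list but named by the rule on size, *COL5A3* was 5.19 and 5.08 CPM against 1.75 and 1.80 CPM (log2 difference 1.15, limma FDR = 5.45e-06) and the secreted protease *HTRA3* was 4.03 and 4.75 CPM against 1.03 and 1.31 CPM (log2 difference 1.31). Of 15 integrins, *ITGB3* was higher with siPDL1-1 (47.6 and 45.9 CPM against 30.4 and 29.3 CPM) and *ITGB8* with siPDL1-2 (41.0 and 40.3 CPM against 61.8 and 66.1 CPM), and only *ITGB3* of the 2 was also called with the trends removed.

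ATF4 is the transcription factor of the integrated stress response, which is started by kinases such as PKR and GCN2 and raises amino acid supply and, when prolonged, cell-death genes. Of 36 tested genes of the ATF4 response and serine synthesis, 6 were higher with siPDL1-2, 0 with siPDL1-1 and 30 were not called, beside 3.47% of all genes higher with siPDL1-2. The median log2 difference was -0.20, and 8 values were above 0. Summed over the list, the level was highest with siNC, at 9882 to 10006 CPM. It was 9239 to 9292 CPM with siPDL1-2 and 8833 to 8840 CPM with siPDL1-1. The median GC content of the list was 52.7%, above that of all tested genes, and with the trends removed the median was -0.26 with 5 genes higher with siPDL1-2, beside 0.949% of all genes. *CHAC1*, which degrades glutathione, was 33.3 and 30.5 CPM with siPDL1-1, 60.8 and 60.4 CPM with siPDL1-2 and 42.7 and 43.8 CPM with siNC (log2 difference -0.91, limma FDR = 4.69e-05). *DDIT3*, which encodes the stress factor CHOP, was 32.4 and 32.0 CPM against 58.5 and 57.1 CPM, with 52.2 and 52.4 CPM for siNC (log2 difference -0.83, limma FDR = 7.82e-08). The siPDL1-1 libraries were the lowest group for both genes. *SESN2*, a leucine sensor that restrains mTORC1, was 44.9 and 49.1 CPM against 73.2 and 75.1 CPM (log2 difference -0.65). *JDP2*, a bZIP repressor, was 9.25 and 11.6 CPM against 15.7 and 16.7 CPM (log2 difference -0.60), and its call was lost without siPDL1-1-C replicate 1 or siPDL1-2-C replicate 2. *TRIB3*, a pseudokinase that feeds back on ATF4, was 152 and 153 CPM against 224 and 221 CPM (log2 difference -0.54) and was called with the trends removed (-0.75). For these 3 genes, too, both siPDL1-2 libraries lay above every library of the other groups. *SLC7A11*, the cystine importer, was 187 and 197 CPM against 305 and 323 CPM (log2 difference -0.70), and its difference was -0.16 with the trends removed. *CTH*, the enzyme that makes cysteine from cystathionine, was 15.9 and 15.7 CPM against 26.0 and 26.0 CPM and was also below the fold threshold after that removal (-0.57). *ATF4* itself was 373 and 370.3 CPM against 455 and 451 CPM and *PSAT1*, of serine synthesis, was 169 and 171 CPM against 216 and 219 CPM, neither past the fold threshold. The C/EBP-ATF site TGATGNAA, searched on both strands, stood in the promoters of 2 of 5 called and 9 of 26 uncalled members, beside 2.90% of tested genes.

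Sterol regulation differed at a feedback gene. Of 33 genes of cholesterol and fatty acid synthesis, 3 were higher with siPDL1-2 and 0 with siPDL1-1, beside 3.47% and 0.884% of all genes. *INSIG1*, which holds the SREBP complex in the endoplasmic reticulum (chr7:155297776-155310235, plus strand), was 76.4 and 75.6 CPM with siPDL1-1, 151 and 155 CPM with siPDL1-2 and 155 and 152 CPM with siNC (log2 difference -1.0, limma FDR = 1.78e-09). The siPDL1-2 and siNC libraries overlapped, and both siPDL1-1 libraries lay below them. *ELOVL6*, a fatty acid elongase, was 28.4 and 27.7 CPM against 49.1 and 49.7 CPM (log2 difference -0.80). *STARD4*, a cholesterol carrier, was 32.2 and 32.7 CPM against 56.7 and 61.4 CPM (log2 difference -0.84), and with the trends removed it was -0.23, no longer called. The other 30 genes of the list were not called, and its median log2 difference was 0.03. With the trends removed, 2 genes of the list were higher with siPDL1-2, beside 0.949% of all genes.

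**Figure D3:**
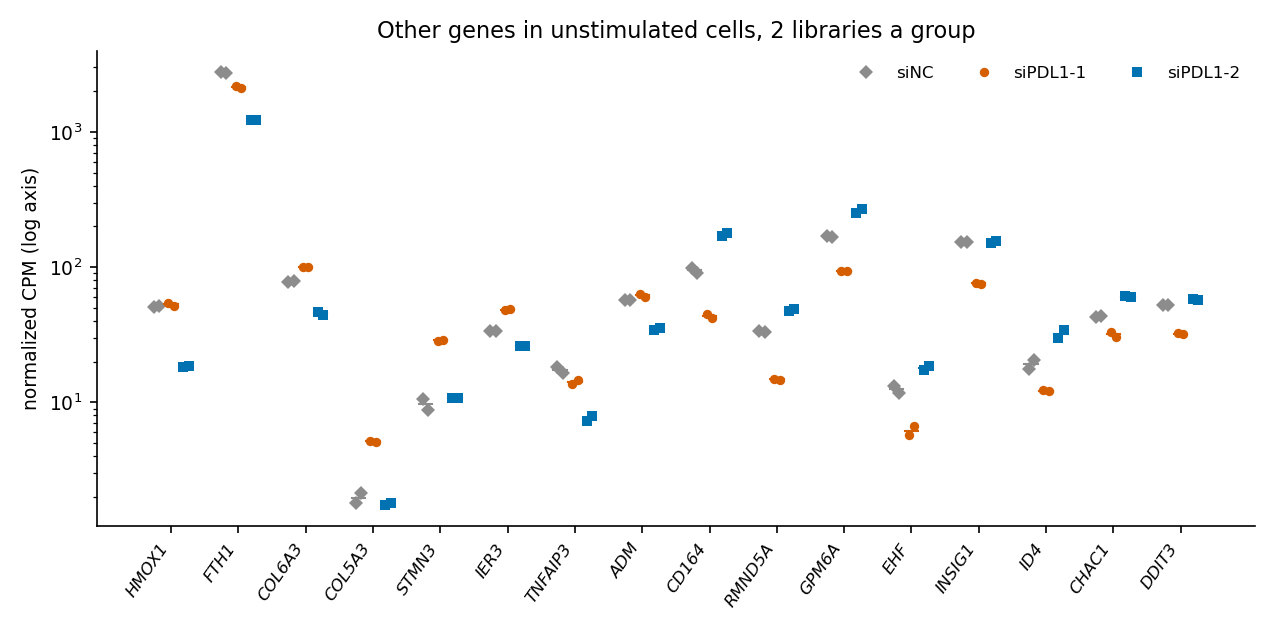
Normalized CPM (vertical log axis) of 16 further genes in the 2 unstimulated libraries of each siRNA, where points are libraries and short lines are group means. *HMOX1*, *FTH1* and *COL6A3* are lowest with siPDL1-2, and *CD164*, *RMND5A* and *INSIG1* are lowest with siPDL1-1, where *INSIG1* stands near 76 CPM against 151 to 155 CPM in the other groups.

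As deposited, 624 of all 783 calls lay on the siPDL1-2 side (3.47% of tested genes), and so did the calls among cell-cycle and p53-target genes, none of which was made with the trends removed. Of 54 G2/M-phase genes, 5 were higher with siPDL1-2 (*KIF20B*, *ANP32E*, *TTK*, *G2E3* and *HMMR*), whose GC contents were 32.8% to 36.4%. *KIF20B*, a mitotic kinesin, was 41.5 and 40.8 CPM against 74.3 and 72.4 CPM (log2 difference -0.82), and -0.20 with the trends removed. In that fit 0 of the 54 genes were called in either direction, and the list's median log2 difference was -0.06 in place of -0.13. Of 43 S-phase genes, 1 was higher with siPDL1-2, a share below that of all genes. This was *RAD51AP1*, at 15.5 and 16.5 CPM against 28.9 and 32.2 CPM (log2 difference -0.89, and -0.40 with the trends removed, where the 1 call of the list was *UNG*, a uracil glycosylase, at -0.64). The proliferation marker *MKI67* was 553 and 553 CPM against 599 and 583 CPM and was not called. Of 18 p53 target genes, 5 were higher with siPDL1-2, namely *MDM2*, *RRM2B*, *ZMAT3*, *PMAIP1* and *TP53INP1*, and 0 of these 5 were called with the trends removed. The call of *PMAIP1* was lost whichever library was left out, that of *TP53INP1* in 2 of the 4 such fits and that of *HMMR* in 1. *MDM2*, the ubiquitin ligase that limits p53, was 28.5 and 29.4 CPM against 49.8 and 53 CPM (log2 difference -0.81, and -0.53 with the trends removed). *CDKN1A*, the cell-cycle inhibitor p21, was 60.0 and 62.0 CPM against 88.9 and 81.4 CPM, with a GC content of 57.3% (log2 difference -0.47), and it was the 1 member called with the trends removed (-0.61).

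The genes with the largest differences on the siPDL1-2 side belonged to no common list. They were named only if the libraries of the 2 siRNAs did not overlap, so that separation was fixed by the rule. *CD164*, a sialomucin of the cell surface and lysosome (chr6:109366514-109382467, minus strand), was 45.0 and 41.8 CPM with siPDL1-1, 171 and 180.2 CPM with siPDL1-2 and 99.1 and 91.1 CPM with siNC. The siNC libraries lay between the siRNAs, and the ratio of means was 4.05 (log2 difference -1.99, limma FDR = 5.22e-06). *RMND5A*, a subunit of the CTLH ubiquitin ligase (chr2:86720291-86778041, plus strand), was 14.9 and 14.7 CPM, 47.7 and 48.6 CPM and 33.7 and 33.2 CPM in the same order (log2 difference -1.63, limma FDR = 2.41e-10). *GPM6A*, a neuronal membrane glycoprotein, was 93.9 and 93.6 CPM, 249.6 and 271 CPM and 169 and 168 CPM (log2 difference -1.46). In each of these genes siPDL1-1 was the lowest and siPDL1-2 the highest group. *GPR1*, a chemerin receptor, differed from this in that siNC lay with siPDL1-1, at 1.51 and 1.69 CPM, 6.06 and 5.59 CPM and 1.76 and 1.57 CPM (log2 difference -1.39, limma FDR = 6.07e-07).

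Transcription regulators were among them. *EHF*, an epithelial ETS factor, was 5.71 and 6.66 CPM with siPDL1-1 and 17.2 and 18.6 CPM with siPDL1-2 (log2 difference -1.40, limma FDR = 2.46e-07). *ID4*, an inhibitor of basic helix-loop-helix factors, was 12.2 and 12.1 CPM against 30.1 and 34.1 CPM (log2 difference -1.32, limma FDR = 5.61e-07), with 17.6 and 20.7 CPM for siNC. *SOX2-OT*, the long noncoding RNA around *SOX2*, was 24.9 and 26.0 CPM against 63.0 and 66.5 CPM (log2 difference -1.31), and *SOX2*, a stemness factor that lies within it on the same strand, was 117 and 116 CPM against 164 and 179 CPM, a log2 difference of -0.55 that passed the fold threshold with the trends removed (-0.62). All 4 had the siPDL1-2 libraries as the highest group. *AMMECR1* was 15.7 and 18.5 CPM against 44.4 and 44.8 CPM, *B3GNT5*, a glycosyltransferase of lactosylceramide, 11.6 and 12.4 CPM against 30.7 and 33.9 CPM, and *ETFRF1*, whose reads are uncertain since strand was not used in counting, 2.84 and 2.78 CPM against 7.81 and 9.92 CPM. *NECAB1*, a neuronal calcium-binding protein, had 7 and 10 reads with siPDL1-1 and 83 and 68 with siPDL1-2. *TMED7*, a cargo receptor of the early secretory pathway, was 45.7 and 47.8 CPM against 118 and 129.6 CPM (log2 difference -1.38, limma FDR = 0.00176), and it shares its strand with the readthrough gene *TMED7-TICAM2*, so these reads may have been split. Its call was lost in 3 of the 4 fits that left out 1 library. The GC content of the called genes of this paragraph ran from 33.4% (*NECAB1*) to 44.8% (*SOX2-OT*), and each was also called with the trends removed.

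On the siPDL1-1 side, *STMN3*, a stathmin that sequesters tubulin and is best known from neurons, was 28.6 and 28.9 CPM against 10.7 and 10.7 CPM, with 10.7 and 8.78 CPM for siNC (log2 difference 1.34, limma FDR = 1.35e-07). It was the 1 call among 18 tested genes of microtubules and HP1, beside 4.35% of all genes. *ZNF469*, a zinc-finger gene linked to corneal collagen, was 31.7 and 32.3 CPM against 13.3 and 12.1 CPM (log2 difference 1.27, limma FDR = 5.74e-07). *STMN3* has a GC content of 63.1% and *ZNF469* of 66.6%, and both were also called with the trends removed (1.11 and 0.92). *C4orf48* was 7.80 and 5.55 CPM against 1.80 and 1.98 CPM (log2 difference 1.39, limma FDR = 0.00606), but its call was lost whichever library was left out, with the replicate block and with the trends removed.

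Several of the largest values belong to annotated transcripts that share their place with a much more abundant gene. *AL035078.4*, which overlaps *RCN1* on the same strand, had 547 and 729 reads with siPDL1-1, 5 and 0 reads with siPDL1-2, and 308 and 563 reads with siNC (log2 difference 4.05, limma FDR = 2.38e-10). *AC099329.1*, which overlaps *HIGD1A* on the same strand, had 423 and 480 reads, 1 and 26 reads, and 236 and 503 reads in the same order (log2 difference 3.24). *AL161665.1*, opposite *ARHGAP5*, had 0 reads in both siPDL1-1 libraries and 344 and 353 reads with siPDL1-2, at least 109-fold higher when 3 reads are allowed in a library with none. *MATR3_2*, a second gene model of *MATR3*, had 0 reads against 170 and 268 reads, at least 70.4-fold higher. *AL035461.3*, over *MCM8*, had 23 and 39 reads against 476 and 343 reads, and *ZFP91-CNTF*, a readthrough of *ZFP91*, was 2.96 and 2.28 CPM against 0.479 and 0.397 CPM. Reads of such pairs could have been assigned to either gene, so these values are uncertain. The calls of *AL161665.1*, *MATR3_2*, *AL035461.3* and *ZFP91-CNTF* were lost whichever library was left out, and that of *AC099329.1* in 2 of the 4 fits.

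In the other lists few genes were called, beside 0.884% of all genes higher with siPDL1-1 and 3.47% higher with siPDL1-2. *ADM*, the vasodilator adrenomedullin, was the 1 gene of 35 of hypoxia and glycolysis that was higher with siPDL1-1, at 63.4 and 60.1 CPM against 34.1 and 35.3 CPM (log2 difference 0.81, limma FDR = 3.57e-07), while *BNIP3L*, a mitophagy receptor, was higher with siPDL1-2 as deposited (153 and 149 CPM against 224 and 232 CPM) and not with the trends removed or in 2 of the 4 fits that left out 1 library. Of 30 TGF-beta genes, 2 were higher with siPDL1-2 (*BMPR2* and *SKIL*) and 0 with the trends removed, and the call of *SKIL* was lost whichever library was left out. Of 24 YAP-TEAD genes, *CCN2* was higher with siPDL1-1 (21.2 and 19.2 CPM against 12.8 and 13 CPM) and *ANKRD1* with siPDL1-2 (55.1 and 55.4 CPM against 91.2 and 87.8 CPM), and neither was called with the trends removed, nor *CCN2* without siPDL1-1-C replicate 1. Of 16 genes of the RNA interference machinery, 0 were called, and *AGO2*, the slicing Argonaute, was 57.6 and 57.5 CPM against 59.5 and 59.0 CPM. Markers of glioma cells were present on both sides, *VIM* at 3609 and 3583 CPM against 3417 and 3444 CPM, *NES* at 164 and 168 CPM against 165 and 158 CPM and *GFAP* at 7.25 and 6.85 CPM against 6.13 and 6.71 CPM, while *OLIG2* stayed below 0.4 CPM in all 4 libraries. As deposited, 0 of 12 glioma markers were called. With the trends removed, 1 was higher with siPDL1-2, and the median log2 difference of the list was -0.12. Of 12 leukocyte markers 2 were tested, the summed level was 1.74 to 2.06 CPM against 1.32 to 1.37 CPM, and *PTPRC* had 0.145 and 0.0941 CPM against 0.144 and 0.0916 CPM. Of 4 tested endothelial markers 0 were called, and of 6 neuron markers 1 was, *SLC17A7*, at 6.06 and 6.45 CPM against 3.35 and 3.60 CPM. With the trends removed, 0 of the 6 neuron markers were called.

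**Figure D4:**
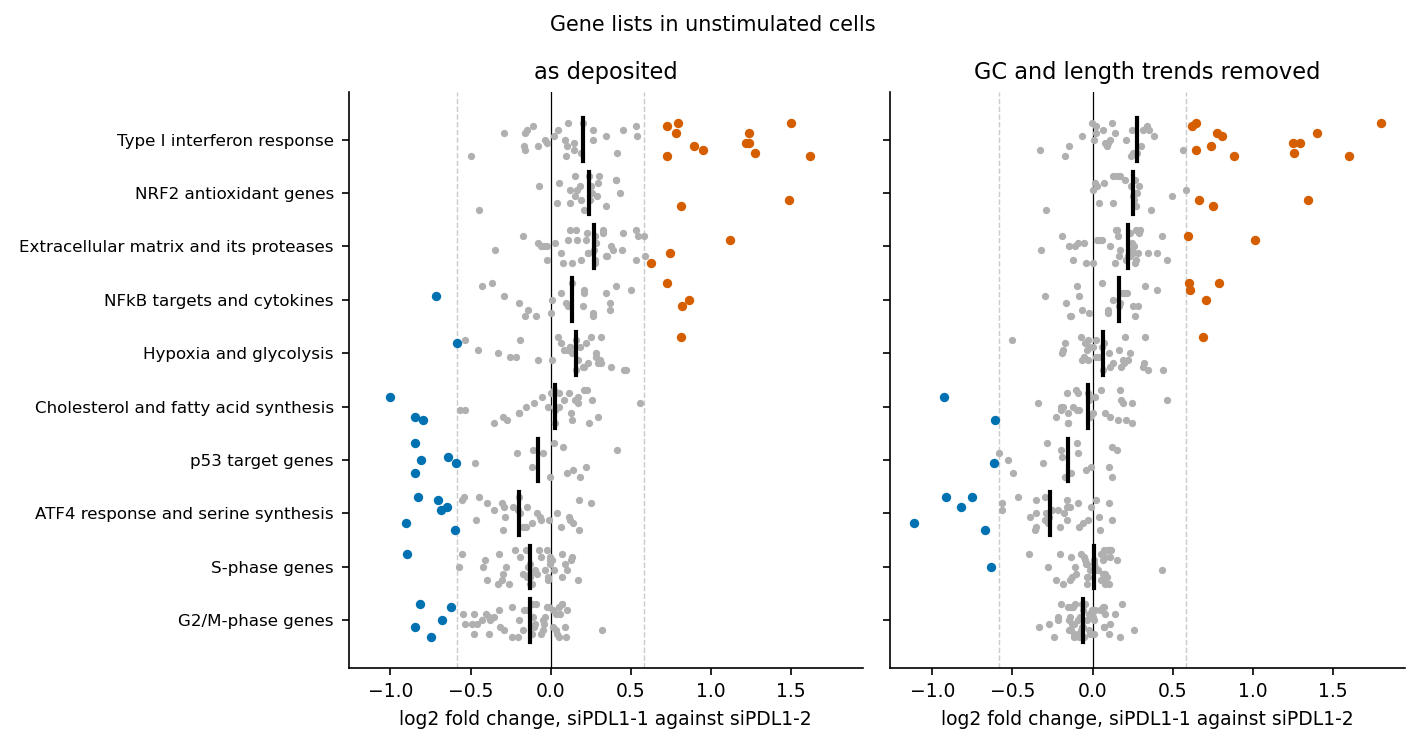
Each point is a tested gene of 1 of 10 lists, placed by its log2 fold change of siPDL1-1 against siPDL1-2 in unstimulated cells, as deposited (left) and with the GC and length trends removed (right); coloured points are called genes (orange, higher with siPDL1-1; blue, higher with siPDL1-2), black bars are list medians and dashed lines mark the fold threshold of 1.5. The type I interferon list holds 12 calls on the left and 13 on the right, the ATF4 list 6 and 5, and the 5 calls of the G2/M list on the left are absent on the right.

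The same siRNAs were compared after IFNγ in 4 other libraries, which share none with the unstimulated contrast. There 401 genes (2.23%) differed, 322 (1.79%) higher with siPDL1-1 and 79 (0.439%) higher with siPDL1-2. Of the 159 genes higher with siPDL1-1 in unstimulated cells, 42 (26.4%) were called in the same direction after IFNγ, which is 13% of the 322. Of the 624 genes higher with siPDL1-2, 31 (4.97%) were, which is 39.2% of the 79. Opposite calls were made for 1 and 6 genes. Across 14278 genes above 1 CPM the differences had a Pearson correlation of 0.221, and 0.347 across 14253 genes with the trends removed. These are correlations across genes, which are not independent replicates.

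A set of genes kept its direction and was called again after IFNγ. *RMND5A* was 14.4 and 15.4 CPM against 40.7 and 41.2 CPM after IFNγ (log2 difference -1.40, limma FDR = 1.88e-10), and *INSIG1* was 87.8 and 93.9 CPM against 186 and 185 CPM (log2 difference -1.02, limma FDR = 1.88e-10). *GPR1* differed by -1.33 on the log2 scale, *COL6A3* by 1.01, *COL5A3* by 1.23, *STMN3* by 1.06, *HMOX1* by 1.04 and *TNFAIP3* by 0.86, all of them called in both states. For *INSIG1* the change of the difference with IFNγ was 0.02 (limma FDR = 0.841) and for *TNFAIP3* it was -0.03 (limma FDR = 0.861).

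After IFNγ, 36 of the 39 members of the type I interferon list were higher with siPDL1-1, with a median log2 difference of 2.16 in place of 0.20. All 12 genes called in unstimulated cells were among them, and so were 8 of the 10 members whose unstimulated difference was below 0, such as *DDX60L* at 2.16 in place of -0.50. The dependence on IFNγ was called for 33 members, each with the difference lower in unstimulated cells. That dependence was called for 876 of all tested genes (4.87%), in this direction for 777 (4.32%), and for 376 (2.1%) with the trends removed. Without siPDL1-1-IFN replicate 1 it was called for 1399 genes, and it was called for 551 to 579 genes without siPDL1-1-IFN replicate 2, siPDL1-1-C replicate 1, siPDL1-2-C replicate 2 or siPDL1-2-IFN replicate 2. *MX2* went from 1.25 and 1.18 CPM to 144 and 138 CPM with siPDL1-1 and from 0.359 and 0.214 CPM to 5.51 and 5.98 CPM with siPDL1-2 (dependence -3.61 on the log2 scale, limma FDR = 1.73e-09). *OAS1* reached 239 and 234 CPM against 10.4 and 12.1 CPM, and *IFIT1* 581 and 613 CPM against 34.2 and 35.6 CPM. *USP18* and *RSAD2*, which were not called without IFNγ, were 118 and 115 CPM against 16.1 and 15.4 CPM and 54.5 and 54.0 CPM against 3.40 and 2.78 CPM. *BST2* was an exception, with a log2 difference of 1.0 after IFNγ and 0.80 without it (dependence -0.20, limma FDR = 0.0676), and *MX1* was not called in either state. *IFNB1* had 18 and 26 reads and *IFNL1* 59 and 36 reads in the siPDL1-1 libraries after IFNγ, against 1 and 0 reads and 0 reads in the siPDL1-2 libraries.

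Other differences were present without IFNγ and not called with it. *ADM* was 57.4 and 60.6 CPM against 53.9 and 58.7 CPM after IFNγ (dependence 0.75, limma FDR = 3.85e-05). *ID4* was 17.6 and 22.5 CPM against 19.4 and 20.2 CPM (dependence -1.34, limma FDR = 2.36e-05). *CD164* was 96.6 and 130.3 CPM against 167 and 152 CPM (dependence -1.49, limma FDR = 0.000496). For *CD164* the siPDL1-1 libraries after IFNγ were apart from each other, and the fold threshold was not reached there with FDR < 0.01.

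**Figure D5:**
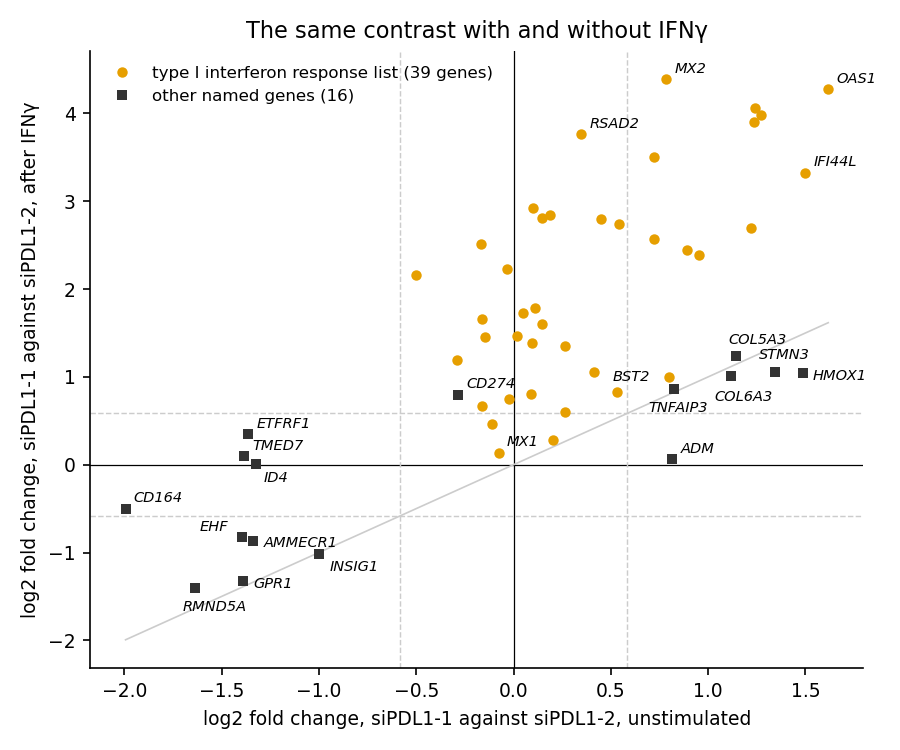
Each point is a gene, placed by its log2 fold change of siPDL1-1 against siPDL1-2 in unstimulated cells (horizontal axis) and after IFNγ (vertical axis); circles are the 39 genes of the type I interferon list, squares are 16 other named genes, the solid diagonal marks equal differences and dashed lines mark the fold threshold of 1.5. Of the 39 circles 36 were called higher with siPDL1-1 after IFNγ, and *MX2* stands farthest above the diagonal, at 0.78 and 4.39, whereas *INSIG1*, *GPR1* and *COL6A3* lie near it.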

How the data were processed

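Poly(A) RNA of transfected U251 cells was sequenced in 12 libraries, 2 in each of 6 groups. The authors mapped and counted reads with CLC Genomics Workbench 22.0.2 on GRCh38 with Ensembl genes, ignoring strand, and deposited normalized CPM for 45416 genes, a signal scaled by library factors. All nonzero values (100%) were whole multiples of what 1 read is worth (tolerance 0.01 read), so reads were recovered. Depth was 17101069 to 55657393 reads on genes, and PCR duplicates were not marked. Floors (3 reads where none was seen) cover counting error, and confidence intervals are those of the limma fit and measure the spread between libraries. The labels name the RNeasy kit and a NovaSeq instrument and the study's methods TRIzol and a HiSeq instrument. The methods speak of independent experiments, no label says that a replicate number marks one, and p-values measure only the spread between these libraries. The harvest time of unstimulated cells is not given in the sources used here.

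Genes kept by edgeR's filterByExpr (at least 10 reads, 15 in total) were tested on log2(CPM + 1) with limma 3.58.1 (trend and robust options, R 4.3.3), all 12 libraries as 6 groups, Benjamini-Hochberg adjustment over 17982 genes, FDR < 0.01 and fold change > 1.5. "Trends removed" values lack each library's trend on GC content (spline with 5 degrees of freedom) and log2 length (4 degrees of freedom), fitted on genes above 10 CPM with GENCODE 44 canonical transcripts. Alternatives were edgeR 4.0.16 and DESeq2 1.42.0 on the recovered reads, other scalings, pseudocounts, filters, thresholds and samples, and a replicate block. The fits with trends removed were chosen after seeing the data. Scripts were tested on simulated data.

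Named genes were *CD274* and members of 25 lists (those called with the largest differences first, and defining members). Added were the 15 called genes with the largest difference in each direction. These had a mean above 1 CPM, libraries that did not overlap between the siRNAs, and a place outside chromosome Y and the mitochondrial genome. The last were the 8 genes with the largest dependence on IFNγ among those called for it and for the unstimulated difference. *TXN*, *UNG*, *AGO2* and *MKI67* are list members too, and so are *IFIT5*, *DDX60L* and *COL6A1*, named after their values were seen. The members and lists were chosen with earlier results of these data known. RefSeq promoter sequences are from GRCh38.p14. The siRNA sequences were not used here.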

Additional observations from a re-analysis of the deposited data

Results flagged for a closer look

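The genes below stand out because the difference between the siRNAs in unstimulated cells departed from the same difference after IFNγ by the test of the departure itself (limma, FDR < 0.01 and fold change > 1.5, called for 4.87% of all tested genes). Each value is the log2 difference between siPDL1-1 and siPDL1-2 without IFNγ minus that after IFNγ. Negative values mean that siPDL1-1 was higher, relative to siPDL1-2, after IFNγ than before.

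In the PD-L1 locus the departure was -1.08 for *CD274* and -1.03 for *JAK2*. Among interferon-stimulated genes it was -3.61 for *MX2*, -3.42 for *RSAD2*, -2.82 for *IFIT1*, -2.78 for *IFIT2*, -2.71 for *OASL*, -2.67 for *OAS2*, -2.67 for *USP18*, -2.66 for *OAS1*, -2.35 for *OAS3*, -2.20 for *IFI44*, -1.85 for *IFI27*, -1.83 for *IFI44L*, -1.70 for *CXCL10*, -1.55 for *IFI6*, -1.47 for *IFIT3* and -1.43 for *ISG15*. For the sensors of double-stranded RNA it was -2.85 for *DDX58* and -1.28 for *TLR3*, where *DDX58* had the larger difference after IFNγ and *TLR3* was called only without it.

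Among the named genes of the other lists the departure was 0.75 for *ADM*, 1 of 4 positive calls in the hypoxia and glycolysis list, -1.40 for *STARD4*, -1.12 for *SKIL*, -1.05 for *PMAIP1*, -1.01 for *ITGB8*, -0.82 for *TP53INP1*, -0.81 for *SLC7A11*, -0.79 for *G2E3*, -0.72 for *BMPR2*, -0.72 for *ZMAT3*, -0.66 for *RRM2B*, -0.61 for *MDM2* and -0.60 for *BNIP3L*. Among the genes with the largest unstimulated differences the values were 3.82 for *AL035078.4*, 3.56 for *AC099329.1*, -1.71 for *ETFRF1*, -1.49 for *CD164*, -1.34 for *ID4*, -1.31 for *NECAB1*, -0.83 for *B3GNT5*, -0.78 for *GPM6A* and -0.75 for *SOX2-OT*. *AL035078.4*, *AC099329.1*, *ETFRF1*, *NECAB1* and *SOX2-OT* overlap other genes, so their reads are uncertain. With the GC and length trends removed, the departure was not called for *JAK2*, *SLC7A11*, *BNIP3L*, *BMPR2*, *SKIL*, *AC099329.1*, *GPM6A*, *B3GNT5*, *MDM2*, *RRM2B*, *ZMAT3*, *TP53INP1* and *G2E3*. The part of the GC trends in these 13 values was not tested.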

How the results depend on the processing

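The total of 783 genes stayed within 1.5 times under the other scalings, tests, filters, pseudocount and choices of samples (647 to 1054), with 1054 by edgeR, 890 by DESeq2 and 647 to 794 with each library left out. Removal of GC and length trends moved it to 257 (87 higher with siPDL1-1, 170 with siPDL1-2) and, with a replicate block as well, to 262 (87 and 175). Leaving out each library with trends removed gave 224, 242, 270 and 220 (71, 76, 83 and 83 higher with siPDL1-1, and 153, 166, 187 and 137 with siPDL1-2, in the order siPDL1-1-C replicates 1 and 2, siPDL1-2-C replicates 1 and 2). The share of calls that were higher with siPDL1-1 went from 20.3% to 33.9% with the trends removed. Without a fold threshold 4338 genes passed (1779 and 2559), 1882 did after IFNγ and 2097 for the dependence on IFNγ, and *CD274* at -0.29 then passed.

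The dependence on IFNγ, 876 genes, was 551 to 1399 with each library left out (1399 without siPDL1-1-IFN replicate 1, 579 without siPDL1-1-IFN replicate 2, 570 without siPDL1-1-C replicate 1, 558 without siPDL1-2-C replicate 2 and 551 without siPDL1-2-IFN replicate 2), 376 with trends removed, 379 with trends removed and a replicate block, and 304, 313, 331 and 312 with trends removed and each of these unstimulated libraries left out. The cause was not tested. *JAK2* changed sign from -0.22 to 0.22 with trends removed, also with the block, and to 0.16, 0.29, 0.26 and 0.19 with each of the 4 libraries left out. *MX1* ranged from -0.22 to 0.064 with each library left out, positive without siPDL1-1-C replicate 1.

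Same-numbered libraries of siPDL1-1-C and siPDL1-2-C did not deviate together (r = -0.01). After IFNγ r was -0.04 between siPDL1-1-IFN and siPDL1-2-IFN, 0.25 between siNC-IFN and siPDL1-1-IFN and -0.13 between siNC-IFN and siPDL1-2-IFN, and 2 pairs are too few to show a pairing. A replicate block gave 780 genes in place of 783, 397 after IFNγ and 874 for the dependence, and among the named genes *COL18A1*, *C4orf48* and *ZFP91-CNTF* were no longer called. With 2 libraries a group and low reads, genes near 1 CPM are limited by depth.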
